A study of Homo sapiens with 4 samples.

Results

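MT-TH, MT-TS2, MT-TL2 and MT-TT are the human mitochondrial genes of the tRNAs for histidine, for serine at AGY codons, for leucine at CUN codons and for threonine. They lie in the distal part of the transcript copied from the heavy strand and were chosen by position. In the numbering of the deposited heavy-strand values they cover bases 12137 to 12205 (MT-TH), 12206 to 12264 (MT-TS2), 12265 to 12335 (MT-TL2) and 15887 to 15952 (MT-TT) of chromosome MT. They make up 4 of the 37 mitochondrial genes and 265 positions, of which 154 are A or C and 111 are G or T. MT-TH, MT-TS2 and MT-TL2 stand side by side between the mRNA genes ND4 and ND5, and MT-TT follows CYTB and is the last gene of that strand before the control region.

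Mitochondria of wild-type HEK-293T cells, a line derived from human embryonic kidney, and of HEK-293T cells without LRPPRC were exposed to 1% dimethyl sulfate (DMS) for 5 min at 37 °C. LRPPRC is an RNA-binding protein of the organelle, known for holding mitochondrial mRNAs stable. There were 2 wild-type and 2 LRPPRC-knockout libraries, all treated with DMS, and the labels number them as biological replicates 1 and 2 of each genotype without saying how the knockout line was made or whether it is 1 clone. The values are mismatch fractions per position after reverse transcription with TGIRT-III, and they carry no read counts, so depth and counting error are unknown. A fraction says nothing of how much of a tRNA was present. LRPPRC itself is a nuclear gene and was not measured, and an untreated library was not analysed here. Values after ± are SDs between the 2 libraries of a genotype, and SE marks standard errors from limma.

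DMS methylates the pairing face of adenine and cytosine where it is not held in a base pair, and the reverse transcriptase leaves a mismatch there. G and T, whose pairing face DMS hardly modifies, serve as background within the same molecule. A tRNA folds into a cloverleaf of an acceptor stem, a D arm, an anticodon arm, a variable region and a T arm, and mitochondrial tRNAs are cut out of long transcripts at both ends before CCA is added to the 3′ end. MT-TS2 is the human mitochondrial tRNA without a D arm. Some bases also carry native methyl groups on the pairing face, which can leave a mismatch without DMS.

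The gene sequences, read 5′ to 3′ from the base column of the heavy-strand values, are shown because every value below is a property of one of their bases. They are written as DNA, without the CCA end, with the anticodon in capitals.
MT-TH: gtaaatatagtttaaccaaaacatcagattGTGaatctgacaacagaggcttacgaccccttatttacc
MT-TS2: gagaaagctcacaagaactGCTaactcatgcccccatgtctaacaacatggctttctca
MT-TL2: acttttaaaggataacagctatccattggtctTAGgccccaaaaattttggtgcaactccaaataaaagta
MT-TT: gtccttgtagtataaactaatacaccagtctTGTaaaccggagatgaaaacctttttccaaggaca

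Each gene was laid out as a cloverleaf by a search for the arrangement with the most Watson-Crick or G-U pairs. The layout gave 20 of 21 possible stem pairs in MT-TH, MT-TL2 and MT-TT, and 16 of 18 in MT-TS2. The loops differ between the genes. MT-TH has a D loop of 5 bases and a T loop of 7, MT-TL2 has 7 and 7, and MT-TT has 6 and 3. The T loop of 3 bases is where the search placed it and may not be the layout of the tRNA itself. MT-TS2 has an anticodon stem of 6 pairs, a variable region of 3 bases and a T loop of 8. Bases are numbered below from the first base of each gene, and the number of the standard tRNA scheme is added where it matters.

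At A and C the average level was lower in both knockout libraries in 3 of the 4 tRNAs before any scaling. The same held in every heavy-strand mRNA and rRNA gene and in TRNF, TRNV, TRNL1 and TRNM. It did not hold in TRNI, TRNW, TRND, TRNK, TRNG and TRNR. Over the heavy-strand values as a whole, 83.8% of single A and C positions lay below without overlap. Positions whose mean of all 4 libraries lay between 0.2% and 30% were tested, which kept 34 of 40 A and C positions in MT-TH, 37 of 37 in MT-TS2, 38 of 40 in MT-TL2 and 36 of 37 in MT-TT. Of the 9 others, 8 lay under 0.2% and 1, base 43 of MT-TL2, lay above 30%.

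Over its tested positions MT-TH, the histidine tRNA, had mean mismatch fractions of 0.927% and 0.928% in the wild-type libraries and 0.748% and 0.678% in the knockout libraries. Both knockout libraries were lower, with group means of 0.927% ± 0.000520 and 0.713% ± 0.0499. MT-TS2, the serine tRNA, gave 0.954% and 1.09% against 0.646% and 0.632%, with means of 1.02% ± 0.0944 and 0.639% ± 0.00961. MT-TL2, the leucine tRNA, gave 1.52% and 1.49% against 1.06% and 1.06%, with means of 1.51% ± 0.0272 and 1.06% ± 0.00240. In these 3 tRNAs the groups did not overlap. MT-TT, the threonine tRNA, gave 1.11% and 1.54% against 1.13% and 1.09%, and there the wild-type libraries stood apart and the groups overlapped. Its means were 1.32% ± 0.2998 and 1.11% ± 0.0282. The second wild-type library was the higher one at 36 of 37 A and C positions of MT-TT, against 21 of 40 in MT-TH.

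In wild type the order of these means was MT-TL2, MT-TT, MT-TS2 and MT-TH. MT-TL2 and MT-TT did not differ beyond the spread of MT-TT. MT-TS2 and MT-TH did not differ beyond the SD of MT-TS2, although their libraries did not overlap. In the knockout the order was MT-TT, MT-TL2, MT-TH and MT-TS2. Libraries of neighbouring genes did not overlap there, with 1.09% in MT-TT and 1.06% in MT-TL2 the closest. The genes also differ in how these positions divide between A and C, and the source of this order was not tested.

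**Figure D1:**
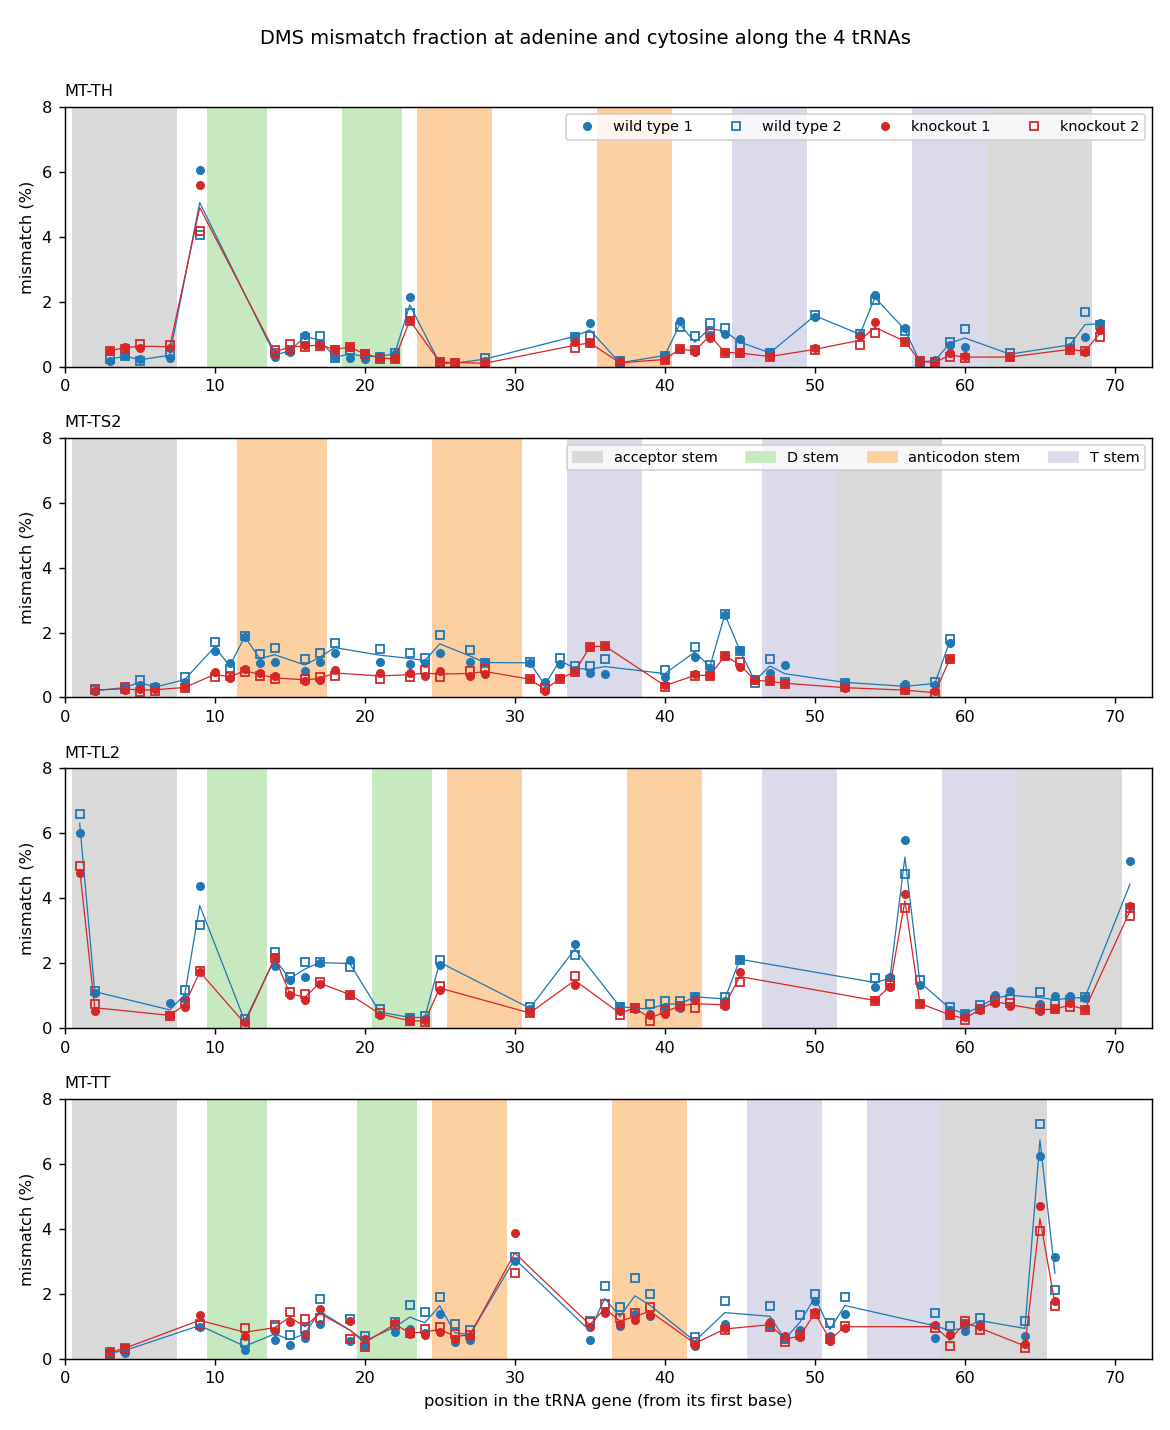
Mismatch fraction in percent at each A and C position of the 4 tRNAs (vertical axis) against the position in the gene (horizontal axis), with a marker per library, a line through each group's mean and shading for the stems of the layout. Base 43 of MT-TL2, at 79.8% to 88.0%, lies off the scale and is left out. The highest points are base 9 of MT-TH, bases 1, 56 and 71 of MT-TL2 and base 65 of MT-TT.

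The highest values stood at single bases of different arms. In MT-TH base 9, an A between the acceptor stem and the D arm, was at 6.05% and 4.06% in wild type and 5.61% and 4.19% without LRPPRC, so the groups overlapped. Position 9 is methylated natively in many human mitochondrial tRNAs. Base 9 of MT-TL2, also an A, was at 4.39% and 3.17% in wild type and 1.73% and 1.74% without LRPPRC, and the groups did not overlap. Base 9 of MT-TT, an A again, was at 0.967%, 1.09%, 1.34% and 1.04% in the same order of libraries, with overlap. Base 9 of MT-TS2 is a T. The share of native methylation in these values was not tested.

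Base 43 of MT-TL2, an A in the variable region, was at 79.8% and 86.5% in wild type and at 85.3% and 88.0% in the knockout. The groups overlapped, and the paired base in the light-strand values stood at 92.9% in wild type and 93.0% without LRPPRC. The high value was present in both strands and both genotypes. It was kept out of the limma tests, and its source was not tested.

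The first base of the anticodon loop, standard position 32, is a C in MT-TS2, MT-TL2 and MT-TT. In the threonine tRNA this C, base 30 of the gene, is known to carry a native methyl group on its pairing face. It was the second highest tested base of MT-TT, at 3.00% and 3.14% in wild type and 3.87% and 2.64% without LRPPRC, with overlap. The same C was at 1.38% and 1.69% against 0.852% and 0.657% in MT-TS2, and at 0.586% and 0.640% against 0.482% and 0.451% in MT-TL2. In both of these the knockout libraries lay below the wild-type ones.

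Bases at the ends of the genes were also high. In MT-TL2 base 1, an A, was at 6.00%, 6.61%, 4.78% and 4.98% (wild type, then knockout), and base 71, the discriminator base, was at 5.16%, 3.71%, 3.77% and 3.44%. In MT-TT base 65, a C of the acceptor stem, was at 6.26%, 7.23%, 4.70% and 3.94%, and the discriminator A, base 66, was at 3.14%, 2.13%, 1.79% and 1.62%. In MT-TS2 the discriminator A, base 59, was at 1.69%, 1.81%, 1.18% and 1.19%. The knockout libraries were lower than both wild-type libraries at 4 of these 5 bases, with base 71 of MT-TL2 the one where they overlapped. Over the heavy-strand values as a whole, 83.8% of A and C positions were lower in this way. The T loops held further high bases. Base 56 of MT-TL2, an A, was at 5.80% and 4.74% against 4.13% and 3.70%, base 54 of MT-TH, a C, at 2.22% and 2.05% against 1.37% and 1.06%, and base 44 of MT-TS2, a C, at 2.54% and 2.58% against 1.29% and 1.27%.

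The background at G and T was higher in both knockout libraries in 2 of the 4 tRNAs. Over the heavy-strand values as a whole, 37.7% of single G and T positions lay above without overlap. In MT-TH the higher G and T ran against the lower A and C, while in MT-TT the groups had overlapped at A and C. In MT-TH the mean fraction at 29 G and T positions was 0.789% and 1.07% in wild type and 1.53% and 1.57% without LRPPRC. In MT-TT the mean over 29 positions was 0.220% and 0.311% in wild type and 0.706% and 0.764% without LRPPRC. Both tRNAs had higher G and T values in both knockout libraries, with means going from 0.932% ± 0.202 to 1.55% ± 0.0287 in MT-TH and from 0.266% ± 0.0641 to 0.735% ± 0.0408 in MT-TT. In MT-TS2 the values were 0.550%, 0.635%, 0.632% and 0.693% in the same order of libraries, and in MT-TL2 1.20%, 1.30%, 1.19% and 1.28%, with overlap in each.

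A limma fit of the mean log2(fraction + 0.001) at G and T, without centring and chosen after the data had been seen, called 21 of 37 genes, or 56.8%, with 27% higher in the knockout and 29.7% lower. MT-TH rose by 0.65 (SE 0.110, limma adjusted p = 0.00267) and MT-TT by 0.91 (SE 0.111, limma adjusted p = 0.00143). For MT-TS2 the change was 0.14 (SE 0.0726, limma adjusted p = 0.149) and for MT-TL2 0.06 (SE 0.0690, limma adjusted p = 0.430). Of the 10 other heavy-strand tRNAs, 5 were called higher at G and T and 1 lower. Among those higher, TRNG rose by 1.59, TRNR by 0.79 and TRNK by 0.78. The median of all heavy-strand G and T positions moved by 0.11. The MT-TH call was lost when a knockout library was left out, with limma adjusted p = 0.0730 without replicate 1 and 0.0568 without replicate 2, while the change was 0.65 in both. The groups did not overlap, with the knockout above, at 25 of 29 G and T positions of MT-TH and 24 of 29 of MT-TT, against 6 of 22 in MT-TS2 and 11 of 31 in MT-TL2. Over the heavy-strand values as a whole this held at 37.7% of G and T positions.

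**Figure D2:**
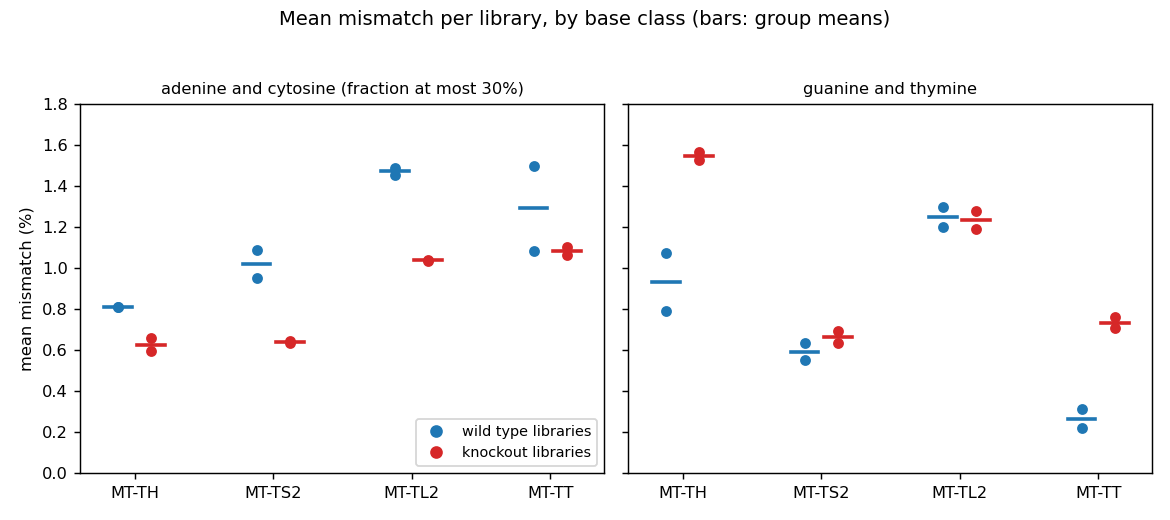
Mean mismatch fraction in percent (vertical axis) of each library, as points, and of each group, as bars, for the 4 tRNAs, at A and C positions with a mean of at most 30% (left) and at G and T (right). At G and T both knockout libraries of MT-TH (1.53% and 1.57%) and of MT-TT (0.706% and 0.764%) lie above both wild-type libraries, while at A and C the knockout lies below in MT-TH, MT-TS2 and MT-TL2.

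The rise at G and T of MT-TT included its anticodon loop and its T stem. The mean over the 4 G and T positions of the anticodon loop went from 0.545% ± 0.190 to 1.82% ± 0.276, while that of the 3 A and C positions there was 1.93% ± 0.351 and 1.95% ± 0.190. The middle base of the anticodon, a G at base 33, was at 0.366% and 0.508% in wild type and at 2.38% and 3.47% in the knockout. Base 56, a T in the 3′ strand of the T stem, was at 0.516% and 0.661% in wild type and 4.01% and 4.36% without LRPPRC, the one G or T position of MT-TT with a mean of at least 2% over the 4 libraries. Its paired base in the light-strand values was at 0.516% and 0.623%.

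In MT-TH the high G and T positions lay at the 5′ end, in the anticodon and in the T loop. Base 1, a G, was at 2.90% and 4.19% in wild type and 5.99% and 5.46% without LRPPRC. The first anticodon base, the G at standard position 34, was at 2.48% and 2.72% against 4.02% and 4.20%, and the third, the G at standard position 36, at 1.20% and 2.03% against 2.96% and 3.65%. All 3 were higher in both knockout libraries. The T at base 51 in the T loop followed with 1.47% and 1.87% against 2.65% and 2.76%, and the T at base 2 overlapped, with 2.67%, 4.16%, 4.23% and 4.01%.

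MT-TL2 was lower in the knockout at its highest G. The G at standard position 37, next to the anticodon, is known to be methylated natively in this tRNA, and it was at 4.90% and 4.15% in wild type and 2.88% and 2.65% without LRPPRC. The T at base 70 was also lower in the knockout, at 2.94% and 2.93% against 4.17% and 4.88%. The T at standard position 33 was higher, at 2.72% and 2.82% against 1.98% and 2.36%. MT-TS2 had no G or T position with a mean of 2% or more.

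Dividing the mean fraction of A and C by that of G and T, over all positions of a gene, sets the DMS signal against that background within a library. This ratio was 4.93 and 4.82 in wild type and 1.56 and 1.39 without LRPPRC for MT-TT, with means of 4.88 ± 0.0734 and 1.48 ± 0.122. For MT-TH it was 1.03 and 0.756 in wild type and 0.430 and 0.379 without LRPPRC, so both knockout libraries and wild-type replicate 2 had a higher mean at G and T than at A and C. MT-TS2 gave 1.73 and 1.71 against 1.02 and 0.913. In MT-TL2 the ratio was 2.87 and 2.76 against 2.64 and 2.51, and without base 43 it was 1.24 and 1.12 against 0.874 and 0.809. The ratio was lower in both knockout libraries in all 4 tRNAs, and each difference had an exact two-sided permutation p = 0.333, the smallest that 2 libraries against 2 allow. A lower ratio was not particular to these tRNAs. Its group mean was also lower in the knockout in every heavy-strand mRNA and rRNA gene. It was 4.09 and 1.56 in ND4, 4.07 and 2.14 in ND5 and 4.26 and 3.00 in CYTB (wild type, then knockout). Among the 10 other heavy-strand tRNAs the group mean, taken the same way, ran from 0.987 to 6.03 in wild type (median 3.51). In the knockout it ran from 0.896 to 6.07 (median 3.02). Of these 10, TRNF, TRNI, TRNM, TRNW and TRNG had a higher ratio in the knockout and the rest a lower one. MT-TH had the lowest ratio of the 14 tRNAs in both genotypes.

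G and T of one strand face C and A of the other, so the G and T values were set beside the light-strand values at the paired bases, as a description. Over the 29 positions of MT-TT Pearson's r was 0.586 in wild type and 0.560 without LRPPRC, Spearman's rho was 0.401 and 0.815, and the regression slope was 5.98% and 29.8%. Base 56 lay far from the rest, and without it r was 0.674 and 0.952 over 28 positions, with slopes of 6.39% and 33.4%. Over the 29 positions of MT-TH r was 0.599 and 0.761, rho was 0.793 and 0.866, and the slope was 39.7% and 76.5%. The light-strand means there were 2.00% and 1.93% opposite MT-TH and 1.28% and 1.34% opposite MT-TT (wild type, then knockout). In MT-TS2 the slope was 48.9% and 59.5% over 22 positions (r 0.855 and 0.841, rho 0.764 and 0.758), and in MT-TL2 57.0% and 61.0% over 31 positions (r 0.607 and 0.782, rho 0.802 and 0.840). The slope was higher in the knockout in all 4 tRNAs, with the wider gaps in MT-TH and MT-TT. It was also higher in 2 neighbouring mRNA genes, at 21.6% and 33.1% in ND4 and 17.2% and 26.4% in ND5, and lower in CYTB, at 30.1% and 16.5%. The points share libraries, neighbouring bases and base composition. Whether light-strand reads had a part in the heavy-strand G and T values was not tested.

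**Figure D3:**
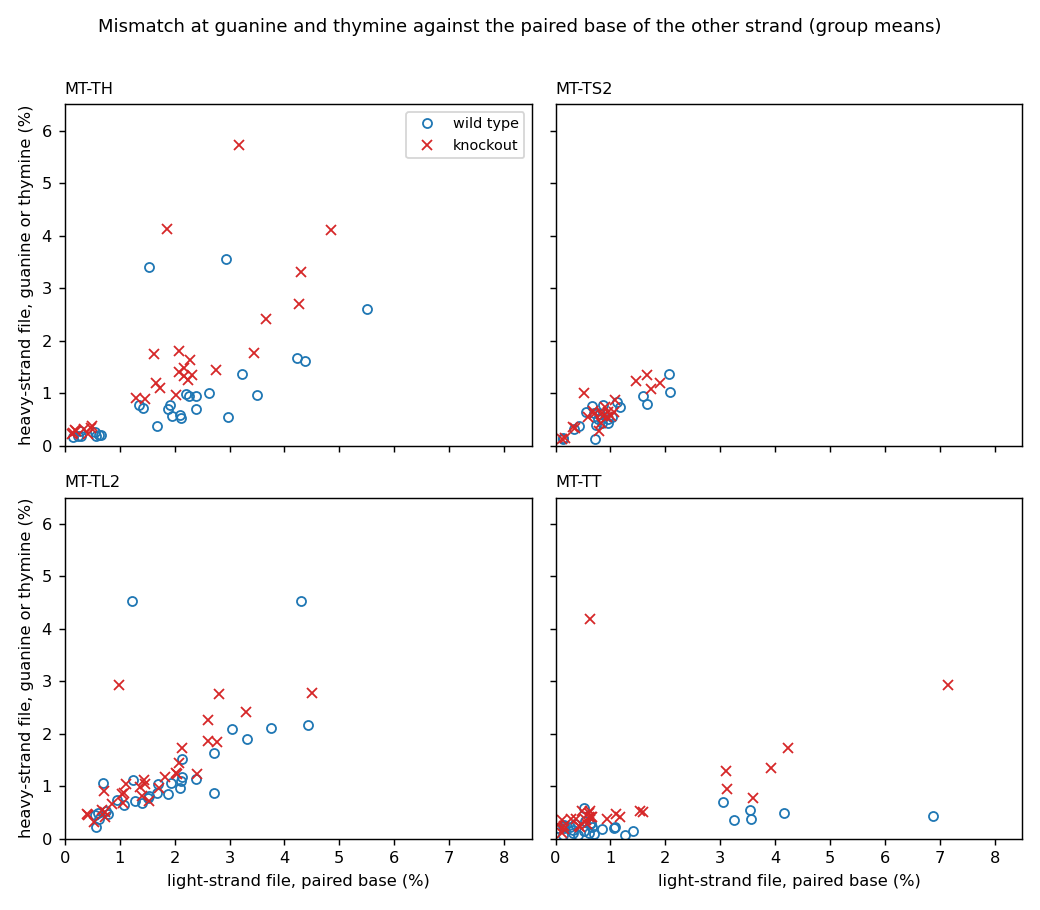
Mismatch fraction in percent at each G and T position of the 4 tRNAs in the heavy-strand values (vertical axis) against that of the paired base in the light-strand values (horizontal axis), as means of the 2 wild-type (circles) and the 2 knockout libraries (crosses). The knockout mean is above the wild-type mean at 29 of 29 positions of MT-TH and 28 of 29 of MT-TT, and the cross at 4.19% in MT-TT is base 56.

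Laid on the arms, wild-type A and C reacted more in loops than in stems in MT-TH, MT-TS2 and MT-TL2. In wild type the mean at paired and unpaired positions was 0.391% and 1.30% in MT-TH, 0.768% and 1.19% in MT-TS2, 0.986% and 2.06% in MT-TL2 and 1.30% and 1.30% in MT-TT. In the knockout it was 0.345% and 0.970%, 0.582% and 0.684%, 0.721% and 1.41%, and 0.993% and 1.20%. In MT-TT the paired mean rested in part on base 65. Over the other 19 paired positions, a count made after the data had been seen, the wild-type libraries averaged 1.01% ± 0.290 and those without LRPPRC 0.818% ± 0.0113. The lowest stem was the anticodon stem of MT-TH, at 0.183% ± 0.0284 in wild type and 0.146% ± 0.0225 in the knockout.

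As a contrast within a library, the mean log2(fraction + 0.001) of unpaired minus paired positions in MT-TH was 1.56 and 1.38 in wild type and 1.14 and 1.11 without LRPPRC. That of MT-TS2 was 0.64 ± 0.00929 and 0.37 ± 0.00112, that of MT-TL2 1.15 ± 0.0401 and 1.05 ± 0.0420, and that of MT-TT 0.20 ± 0.00536 and 0.37 ± 0.0773. The contrast was smaller in both knockout libraries in MT-TH, MT-TS2 and MT-TL2 and larger in MT-TT, with differences of -0.35, -0.28, -0.11 and 0.16. Each exact two-sided permutation p was 0.333, the smallest possible. The same contrast at G and T, the background bases, was 0.95 and 1.23 in MT-TH, 0.57 and 0.42 in MT-TS2, 0.56 and 0.74 in MT-TL2 and 0.67 and 0.98 in MT-TT (wild type, then knockout), so G and T mismatches were also more frequent in loops. With pairs taken from the minimum free energy fold, the groups overlapped in MT-TL2 (-0.11) and MT-TT (0.08), and with a pseudocount of 0.0001 they overlapped in MT-TL2 (-0.07). With a T loop of at least 5 bases the contrast of MT-TT was 0.30 in wild type and 0.43 without LRPPRC.

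Arm by arm, both knockout libraries lay below both wild-type libraries at A and C in 6 of 10 arms of MT-TH, 7 of 8 of MT-TS2, 9 of 10 of MT-TL2 and 4 of 10 of MT-TT. The 1 other arm of MT-TS2, the T stem, lay above, and the remaining arms overlapped. Over the heavy-strand values as a whole, 83.8% of single A and C positions lay below without overlap. Arms of other genes were not counted. The T loop went from 1.46% ± 0.0256 to 0.838% ± 0.119 in MT-TH, from 1.27% ± 0.0552 to 0.757% ± 0.000825 in MT-TS2 and from 2.40% ± 0.124 to 1.70% ± 0.0704 in MT-TL2. In MT-TS2 the anticodon stem went from 1.33% ± 0.194 to 0.690% ± 0.00283 and the anticodon loop from 1.29% ± 0.216 to 0.716% ± 0.0555, so stem and loop of that arm had like levels in each genotype. The connector of MT-TL2 went from 2.28% ± 0.179 to 1.23% ± 0.0665 and its D loop from 1.90% ± 0.104 to 1.32% ± 0.0358. The T stem of MT-TS2 lay above, at 0.883% ± 0.0969 and 0.974% ± 0.00863. The acceptor stem and D stem of MT-TH overlapped between the groups, at 0.498% and 0.520% and at 0.359% and 0.379%, as did the D loop of MT-TT, at 0.893% and 1.10%. The acceptor stem of MT-TT did not overlap, at 1.59% and 1.12%.

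**Figure D4:**
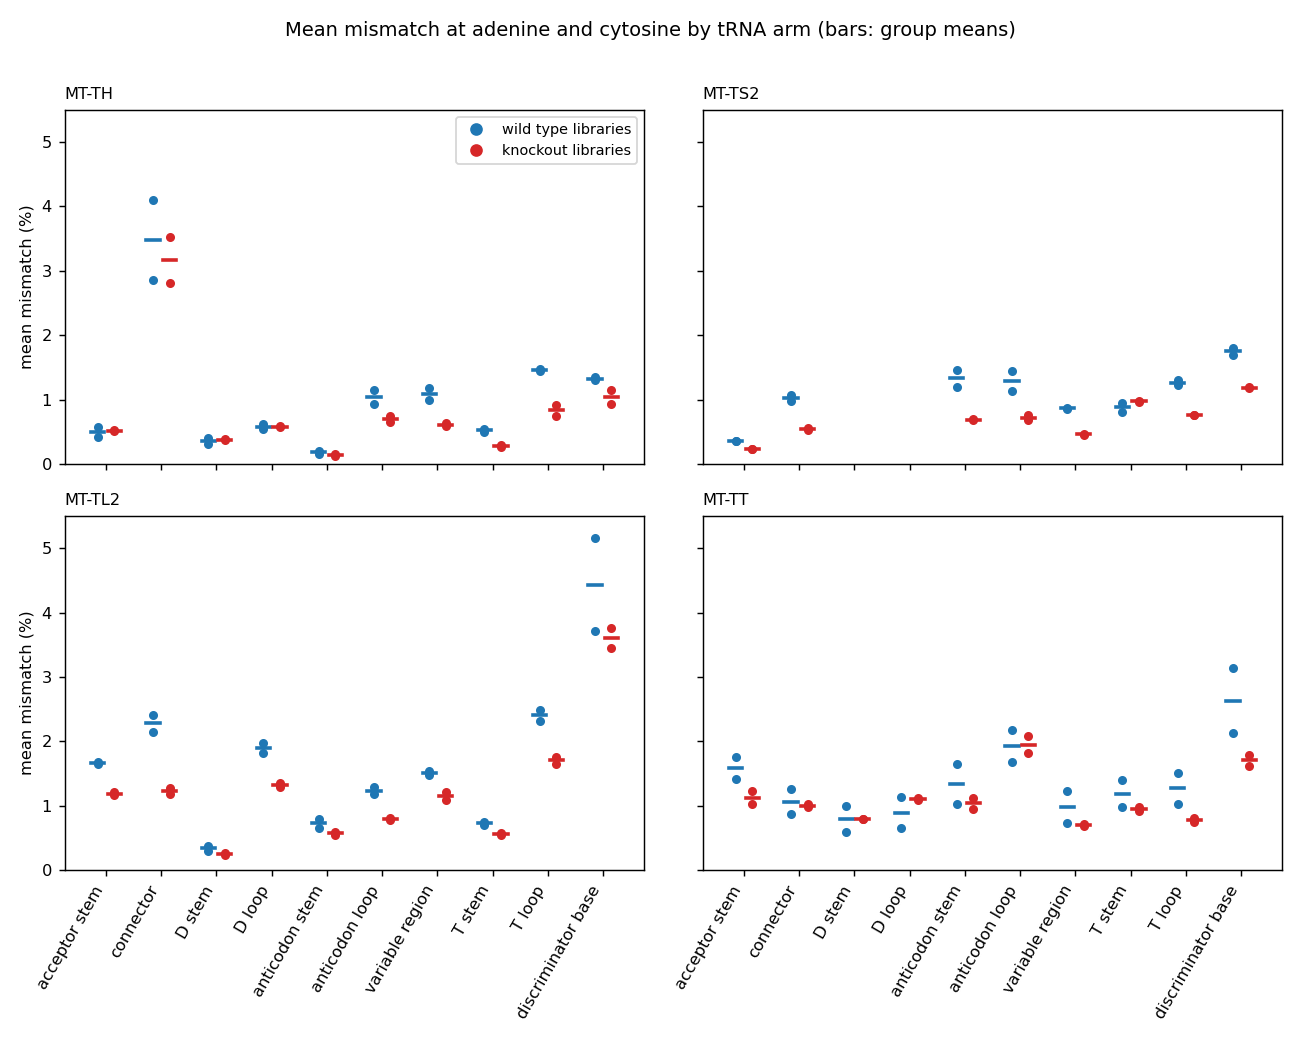
Mean mismatch fraction in percent at A and C (vertical axis) by arm of each tRNA (horizontal axis), with a point per library and a bar per group mean; MT-TS2 has no D arm, and base 43 of MT-TL2 is left out. The knockout points of the T loop lie below the wild-type points in all 4 tRNAs, and those of the MT-TS2 T stem lie above.

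Before any scaling the mean at C was lower in both knockout libraries in all 4 tRNAs, and the mean at A was so in 2. It went at C from 0.872% ± 0.0699 to 0.468% ± 0.0441 in MT-TH, from 1.09% ± 0.120 to 0.626% ± 0.0298 in MT-TS2, from 0.905% ± 0.0711 to 0.551% ± 0.00505 in MT-TL2 and from 1.67% ± 0.389 to 1.27% ± 0.0952 in MT-TT, without overlap. At A it went from 0.774% to 0.721% in MT-TH and from 1.06% to 0.970% in MT-TT with overlap, and from 0.956% ± 0.0703 to 0.652% ± 0.00953 in MT-TS2 without it. With base 43 included, the mean at A of MT-TL2 went from 4.92% to 4.59%. Without that base it went from 1.20% to 0.912% at paired A and from 2.43% to 1.74% at unpaired A, without overlap. Over the heavy-strand values as a whole, 83.8% of A and C positions lay below without overlap. That share was not split by base.

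Whether a tRNA was called higher or lower depended on the scaling of the libraries. The median of all tested heavy-strand A and C positions was lower in the knockout by a log2 change of -0.63. The limma fit was made without centring and with each gene relative to the library median of its own strand. Relative to the median, limma called 31 of 37 genes (83.8%), with 59.5% of the 37 higher and 24.3% lower. All genes called higher were heavy-strand genes. Those called lower were light-strand genes except ND4, so calls among heavy-strand genes were almost all higher. MT-TH was the one call among the 4 tRNAs, at 0.36 (SE 0.0828, limma adjusted p = 0.0215). MT-TL2 at 0.17 (SE 0.0580, limma adjusted p = 0.0532), MT-TT at 0.49 (SE 0.209, limma adjusted p = 0.0964) and MT-TS2 at 0.05 (SE 0.0812, limma adjusted p = 0.595) did not pass. The MT-TH call was lost under quantile normalization (0.11, limma adjusted p = 0.381), and C alone gave a change of -0.05. It was also lost without knockout replicate 1 (0.33, limma adjusted p = 0.290) and without knockout replicate 2 (0.40, limma adjusted p = 0.221). With 1 library of a genotype left, the spread comes from the pair of the other genotype and the lone library is assumed to vary likewise. Under that assumption, with 1 wild-type library left, the change of MT-TT was 0.22 without replicate 1 and 0.76 without replicate 2 (limma adjusted p = 0.00836 and 0.000158), although the wild-type libraries were the ones that stood apart. That of MT-TL2 was 0.16 and 0.19 (limma adjusted p = 0.0172 and 0.00944), and that of MT-TS2 -0.02 without replicate 1 and 0.12 without replicate 2 (limma adjusted p = 0.0260 for the latter).

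Without centring, limma called 73% of genes, 64.9% lower and 8.11% higher. MT-TS2 fell by 0.58 (SE 0.0892, limma adjusted p = 0.00363) and MT-TL2 fell by 0.46 (SE 0.0522, limma adjusted p = 0.00133). The changes of MT-TH, -0.27 (SE 0.100, limma adjusted p = 0.0653), and of MT-TT, -0.14 (SE 0.187, limma adjusted p = 0.508), did not pass. None of the 4 tRNAs was called in 1 direction under both scalings.

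The 10 other heavy-strand tRNAs were all called higher relative to the median, with a median change of 0.54 and a range of 0.26 to 1.53, against a median of 0.27 in the 4 tRNAs. Without centring 2 of the 10 were called higher and 4 lower, with a median of -0.09 against -0.36. In order of the centred change among the 14, MT-TT stood at place 6, MT-TH at 10, MT-TL2 at 13 and MT-TS2 at 14. The heavy-strand genes with the nearest centred change were TRNF (0.44) and TRNM (0.28) for MT-TH, ND5 (0.01) and COX3 (0.00) for MT-TS2, ND3 (0.16) and CYTB (0.16) for MT-TL2, and TRNV (0.48) and TRND (0.48) for MT-TT. No test of the difference between the 4 and the 10 was made.

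**Figure D5:**
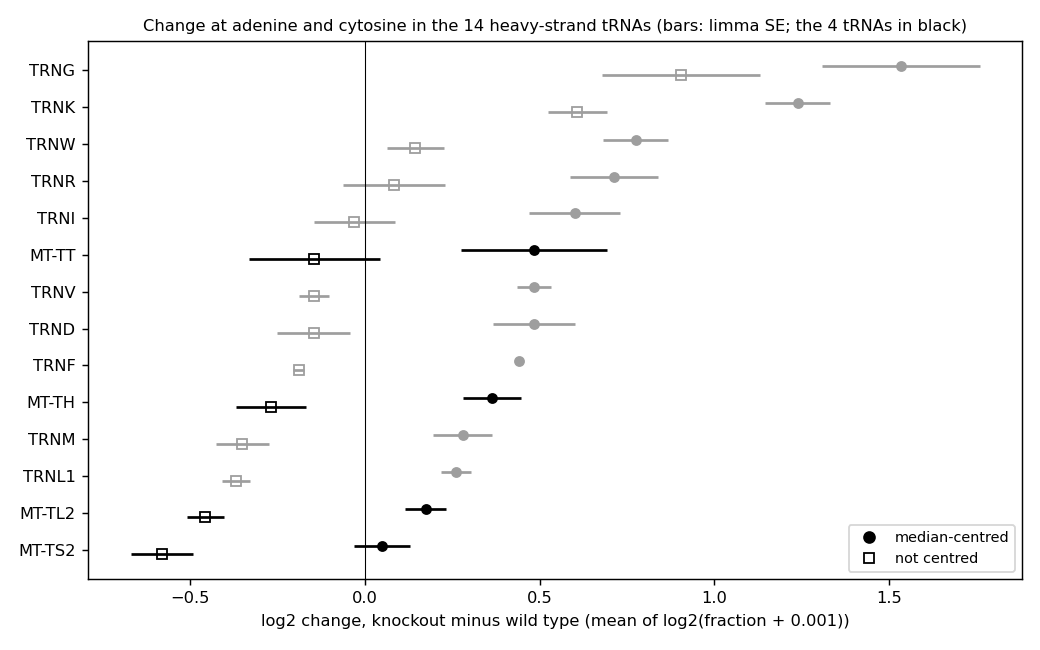
Log2 change, knockout minus wild type, of the mean log2(fraction + 0.001) at A and C (horizontal axis) for the 14 heavy-strand tRNAs (vertical axis), with limma SE as bars, relative to the library median (filled) and without centring (open); the 4 tRNAs are in black. MT-TS2 lies lowest under both scalings, at 0.05 and -0.58.

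At single positions, limma relative to the median called 42 of the 145 tested bases, 36 higher and 6 lower, against 71.5% of all tested heavy-strand positions (44.9% higher and 26.6% lower). The calls were 10 higher and 3 lower in MT-TH, 5 and 2 in MT-TS2, 8 and 1 in MT-TL2, and 13 and 0 in MT-TT. The median change was 0.19 over the 145 and 0.13 over all. Without centring 84 were called, 9 higher and 75 lower, against 83% of all (4.73% higher and 78.3% lower). Before any scaling all knockout libraries lay below all wild-type libraries at 25 of 40 A and C positions of MT-TH, 32 of 37 of MT-TS2, 31 of 39 of MT-TL2 and 11 of 37 of MT-TT, against 83.8% in the heavy-strand values as a whole. They lay above at 7, 2, 0 and 3, against 7.57%. The 6 bases lower relative to the median were all C, and they were lower without centring too.

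The 9 bases higher under both scalings lay in 3 tRNAs. In MT-TH they were 5 A, 4 of them in the 5′ strand of the acceptor stem (bases 3, 4, 5 and 7) and 1 in the D loop (base 18). Base 5 was at 0.234% and 0.193% in wild type and 0.576% and 0.697% without LRPPRC, a change of 1.86 relative to the median (SE 0.144, limma adjusted p = 0.000627) and 1.23 without centring. Base 3 was at 0.190% and 0.245% against 0.498% and 0.488%, a change of 1.54 (SE 0.136, limma adjusted p = 0.000872) and 0.91. The neighbouring G and T in that strand, bases 1, 2 and 6, stood at 5.73%, 4.12% and 1.75% in the knockout against 3.55%, 3.41% and 0.784% in wild type, with overlap between the libraries at base 2. The part of background in the rise at A was not tested.

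In MT-TS2 the 2 bases were next to each other in the 5′ strand of the T stem. Base 35, a C, was at 0.768% and 0.965% in wild type and 1.57% and 1.56% without LRPPRC, a change of 1.42 (SE 0.120, limma adjusted p = 0.000767) and 0.79 without centring. Base 36, an A, was at 0.727% and 1.18% against 1.59% and 1.58%, a change of 1.34 (SE 0.220, limma adjusted p = 0.00537) and 0.71. The paired bases in the light-strand values were also higher in the knockout, at 2.53% against 1.70% and 3.14% against 2.37%. In MT-TT the 2 bases lay in the D arm. Base 15, an A of the D loop, was at 0.432% and 0.745% against 1.14% and 1.43%, a change of 1.67 (SE 0.260, limma adjusted p = 0.00453) and 1.04, and base 12, an A of the D stem, was at 0.269% and 0.500% against 0.687% and 0.947%, a change of 1.58 (SE 0.290, limma adjusted p = 0.00768) and 0.95. At all 4 bases the knockout libraries lay above the wild-type ones. The G and T of the MT-TT D stem were also higher, with a mean of 0.149% in wild type against 0.460% without LRPPRC, and their part in the rise at A was not tested.

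Among the bases called lower, the largest falls were in loops of MT-TH and in MT-TS2. Bases 60 and 68 of MT-TH had changes of -0.63 and -0.60 that did not pass (limma adjusted p = 0.139 and 0.120). Base 50 of MT-TH, a C opening the T loop, was at 1.54% and 1.60% in wild type and 0.564% and 0.510% without LRPPRC, a change of -0.77 relative to the median (SE 0.0873, limma adjusted p = 0.00176) and -1.40 without centring. Base 44 of MT-TH, a C of the variable region, was at 1.00% and 1.19% against 0.456% and 0.429%, a change of -0.50 (SE 0.118, limma adjusted p = 0.0170), and base 41 changed by -0.48 (limma adjusted p = 0.0101). Base 12 of MT-TS2, a C at the start of the anticodon stem, was at 1.87% and 1.88% against 0.877% and 0.771%, a change of -0.47 (SE 0.0825, limma adjusted p = 0.00682), and base 44, in the T loop, changed by -0.32 (SE 0.0440, limma adjusted p = 0.00325). In MT-TL2 the one call was base 19, a C of the D loop, at 2.10% and 1.88% against 1.04% and 1.03%, a change of -0.25 (SE 0.0724, limma adjusted p = 0.0325).

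The largest rises of MT-TL2 relative to the median were rises against that median only. Base 14, an A of the D loop, was at 1.92%, 2.33%, 2.20% and 2.15%, and base 38, a C facing a non-pairing base in the anticodon stem, at 0.611%, 0.617%, 0.604% and 0.631%. Both overlapped between groups, and their changes were 0.67 (limma adjusted p = 0.00381) and 0.64 (limma adjusted p = 0.00368) relative to the median and 0.04 and 0.01 without centring. The C at standard position 32 of MT-TT was called the same way, at 0.69 (limma adjusted p = 0.0245) and 0.06.

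How unevenly the signal was spread over the tested bases of a gene was measured by the Gini index, a value that scaling leaves alone. It went from 0.410 to 0.361 in MT-TH, from 0.278 to 0.290 in MT-TS2, from 0.418 to 0.422 in MT-TL2 and from 0.348 to 0.294 in MT-TT. None passed (limma adjusted p = 0.336, 0.363, 0.836 and 0.302), against 45.9% of all genes and 2 of the 10 other heavy-strand tRNAs called. Along each gene, r of log2 values between group means was 0.816, 0.806, 0.970 and 0.856 over 40, 37, 39 and 37 A and C positions. Between the 2 wild-type libraries r was 0.940, 0.920, 0.957 and 0.943, and between the knockout libraries 0.974, 0.946, 0.974 and 0.8995. In MT-TH, MT-TS2 and MT-TT the value between genotypes was thus below both values within a genotype. These are descriptions over neighbouring bases of the same libraries.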

How the data were processed

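The 4 libraries (2 wild type, 2 LRPPRC knockout) each came with a heavy-strand and a light-strand set of values. Per the file headers, the deposited numbers are the fraction of mismatches and, in a further column, of mismatches with deletions, for each position and base. Per the submitters' processing notes cutadapt and Bowtie2 were used. Their versions and settings, any minimum of coverage and the filters on reads are not given in the sources used here. Without counts no interval or floor was computed. Genes were placed with the GRCh38.p14 gene table, where they are named TRNH, TRNS2, TRNL2 and TRNT, with its numbering lowered by 1 beyond position 3106; 13 of 13 protein genes then had an open frame, and 0 of 13 did without the shift. The strand of the tRNA genes came from general knowledge.

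Fractions were transformed as log2(fraction + 0.001), which understates the change of low positions, and centred on the library median of the same strand. Genes and positions of all 37 genes or of the whole heavy strand went into limma 3.58.1 under R 4.3.3 (lmFit, eBayes with trend; no trend for the Gini index), two-sided, Benjamini-Hochberg, threshold 0.05. The limma scripts were tested on simulated data. Contrasts and ratios used exact permutation tests. RNAfold 2.7.2 gave the alternative fold. The rest was done in Python 3.11.15 with scipy 1.17.1, pandas 2.3.3, numpy 2.4.6 and matplotlib 3.10.9. The replicate numbers were not used to pair the samples. Same-numbered libraries' deviations correlated at 0.0007 over 9910 positions, which cannot show whether those libraries were handled together. Named bases were those above 30%, the 3 highest tested, the 2 largest called rises and falls, standard positions 9 and 32 where A or C, and G or T with a mean of at least 2%. Other bases named were chosen after their values were seen, as were the G and T gene fit and the 5-base T loop alternative. The tRNAs and all rules were chosen with earlier results of these data known.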

Additional observations from a re-analysis of the deposited data

How the results depend on the processing

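With 2 libraries in each group and no read counts, neither depth nor small changes could be judged, and a tRNA's direction at A and C hung on the scaling. The change at A and C relative to the median (0.36 in MT-TH, 0.05 in MT-TS2, 0.17 in MT-TL2, 0.49 in MT-TT) became -0.27, -0.58, -0.46 and -0.14 without centring. Quantile normalization gave 0.11 in MT-TH (limma adjusted p = 0.381), -0.19 in MT-TS2 and -0.027 in MT-TL2. C alone gave -0.048 in MT-TH. A pseudocount of 0.0001 gave -0.0087 in MT-TS2, and a pseudocount of 0.01 gave 0.18 in MT-TS2, 0.21 in MT-TL2 and 0.36 in MT-TT, each then past the threshold. Leaving out 1 library gave 0.30 to 0.43 in MT-TH, -0.017 to 0.12 in MT-TS2, 0.16 to 0.19 in MT-TL2 and 0.22 to 0.76 in MT-TT, for the Gini change of MT-TL2 -0.0141 to 0.0221, and for the G and T change of MT-TH 0.48 to 0.82. Centred on the G and T median, the G and T change of MT-TL2 was -0.051. The cause of these moves was not tested.

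The labels do not say whether same-numbered libraries were handled together (r of deviations 0.0522 over 145 positions). A replicate block gave 0.36 in MT-TH (limma adjusted p = 0.157), 0.49 in MT-TT (limma adjusted p = 0.00373) and 0.14 at G and T of MT-TS2 (limma adjusted p = 0.0393). Positions called higher, 36 here, were 9 without centring, 19 under quantile normalization, 79 with a pseudocount of 0.01 and 29 to 45 without 1 library. Those called lower, 6 here, were 75, 20, 3 and 5 to 11. Those counts are of the 145 tested bases. Of all 9910 tested heavy-strand positions, 4453 were called higher and 2634 lower here. They were 469 and 7756 without centring, 3901 and 2885 under quantile normalization, and 4991 and 2734 with a pseudocount of 0.01. The counts without 1 library rest on a lone library of a genotype and were not compared. Without centring the change was -0.031 at base 9 and -0.38 at base 23 of MT-TH and -0.52 at base 59 of MT-TS2. It was -0.36, -0.41, -0.27 and -0.33 at bases 1, 56, 71 and 31 of MT-TL2 and -0.57 at base 66 of MT-TT. Quantile normalization gave -0.011 at base 59 of MT-TS2 and -0.016 at base 31 of MT-TL2. At base 65 of MT-TT the change was 0.011 with a pseudocount of 0.0001 and 0.00056 with no lower limit. Without 1 library it ran from -0.13 to 0.12 at base 65 and from -0.21 to 0.32 at base 66 of MT-TT, and from -0.32 to 0.026 at base 54 of MT-TH.

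The loop-minus-stem differences kept their sign under every alternative run, but the groups overlapped in MT-TL2 with RNAfold pairs (-0.11) and with a pseudocount of 0.0001 (-0.071), and in MT-TT with RNAfold pairs. A pseudocount of 0.01 gave -0.19 in MT-TH, -0.19 in MT-TS2 and 0.10 in MT-TT. In MT-TS2 a pseudocount of 0.0001 gave -0.27, RNAfold pairs -0.37, A alone -0.21 and A and C each centred -0.27. In MT-TT RNAfold pairs gave 0.079 and A and C each centred 0.11. The change of the ratio of A and C to G and T was -0.756 in MT-TS2, -0.241 in MT-TL2 and -3.40 in MT-TT. It was -0.983 (medians) and -0.699 (with deletions) in MT-TS2, -0.340 without base 43 in MT-TL2 and -1.95 (medians) in MT-TT. With a mean fraction of at least 0.01 MT-TH kept 6 positions and had no value.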

Other observations

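Of the 4 tRNAs, only MT-TH had a lower mean at A and C with a higher mean at G and T in both knockout libraries. The RNA next to the 4 tRNAs had this at 2 of the 4 borders. In the last 50 nt of ND4, just before MT-TH, the mean at A and C went from 3.26% ± 0.0296 in wild type to 1.23% ± 0.0459 in the knockout, and at G and T from 1.01% ± 0.0345 to 1.88% ± 0.0973. In the first 50 nt of ND5, just after MT-TL2, A and C went from 3.42% ± 0.0437 to 2.54% ± 0.00238 and G and T from 0.981% ± 0.0486 to 0.811% ± 0.00495. In the last 50 nt of CYTB, just before MT-TT, A and C went from 2.75% ± 0.116 to 2.04% ± 0.00919, and G and T overlapped at 1.47% and 1.498%. In the 50 nt after MT-TT, A and C went from 1.04% ± 0.0165 to 0.811% ± 0.00705 and G and T from 0.268% ± 0.00815 to 0.349% ± 0.00695. The rise at G and T of MT-TT, from 0.266% to 0.735%, thus stood between a stretch with overlap before it and a smaller difference after it. The difference between MT-TT and its neighbours was not tested.

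Deletions reached 0.5% in a group mean at 8 bases of the 4 tRNAs, and 2 of these were higher in the knockout. The middle anticodon base of MT-TL2, an A at standard position 35, had deletions at 0.872% in wild type and 0.480% in the knockout beside mismatches of 2.60%, 2.26%, 1.34% and 1.60%. The first base of MT-TH had 0.726% and 0.701%, base 63 of MT-TH 0.643% and 0.148%, and base 70 of MT-TL2 0.641% and 0.517%. Bases 64 and 65 of MT-TT had 0.664% and 0.582% in wild type and 0.214% and 0.228% without LRPPRC. Bases 13 and 64 of MT-TL2 were the 2 higher ones, at 0.478% and 0.576% in wild type and 0.708% and 0.622% without LRPPRC.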
